A study of Mus musculus with 6 samples.

Results

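The 10 genes described here are expressed broadly by young neurons and encode parts of the neuronal cytoskeleton or neuronal RNA-binding proteins. They were chosen by symbol, and each symbol matched 1 of the 34745 genes in the deposited table. They are the tubulin gene Tubb3, the microtubule-associated protein genes Map2, Mapt and Dcx, the stathmin genes Stmn2 and Stmn3, the RNA-binding protein genes Elavl3 and Elavl4, the intermediate filament gene Ina and the growth cone gene Gap43. All 10 passed the filter on low counts.

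RNA-seq was made from the MGE (medial ganglionic eminence), a part of the ventral forebrain whose progenitors give rise to many cortical interneurons, in E12.5 mouse embryos (embryonic day 12.5). There were 3 libraries of wild type littermates and 3 of Sp9-/- embryos, here called Sp9 null. Sp9 encodes a transcription factor with zinc fingers that the ventral forebrain expresses during development. Both genotypes shared a mixed background of C57BL/6J, 129S6 and CD1 and received no treatment named in the labels. Each library has a replicate number, 1 to 3, which equals the letter A to C in its column name, and the labels do not say what a number marks or how many embryos a library holds. The p-values therefore reflect the spread among these 6 samples, and some of that spread may be technical.

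As neurons leave the cell cycle they build microtubules and neurofilaments that carry the axon and leading process. Tubulins polymerise into microtubules, microtubule-associated proteins bind and stabilise them, and stathmins bind free tubulin dimers and favour disassembly. Neuronal ELAVL proteins bind AU- and U-rich stretches of RNA and act on its stability, splicing and translation. Dcx and Tubb3 are commonly used to mark newborn neurons, while Gap43, Mapt and Ina are linked with growing axons. In bulk RNA, fewer neurons and less RNA per neuron cannot be told apart.

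Libraries held 6826447 to 10979280 counts, and a floor of 3 counts corresponded to 0.273 to 0.439 CPM (counts per 1000000 counts of the library). The floor covers counting error only. Sp9 averaged 213 ± 30.6 CPM over the wild type libraries and 12.04 ± 1.30 CPM over the null ones (SD, n = 3 each), so the labels and the Sp9 level matched in all 6 libraries. Principal component 1 held 51.8% of the variance and separated both number 2 libraries from the rest. For the 10 genes and the other neuronal genes, the replicate number calls and the genotype calls with the replicate number as a block are given with and without them. The fit with genotype alone was not run without both of them. The defining MGE markers Nkx2-1 and Lhx6 were among 13 MGE markers counted, and the summed MGE markers reached 3892 to 4650 CPM over the libraries.

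The largest differences among the 10 genes lay between replicate numbers and not between genotypes. All 10 were lower in the 2 libraries numbered 2 than in the libraries of the same genotype numbered 1 and 3. The size ran from a level of 17.2% of the mean of numbers 1 and 3 for Mapt in null libraries to 88.1% for Elavl4 in wild type. Between genotypes, 0 of the 10 passed the test that uses genotype alone, and with the replicate number as a block Tubb3 and Stmn3 were lower and Elavl4 was higher in null libraries. Those 3 calls were not made when the number 2 pair was left out, and those of Stmn3 and Elavl4 were not made without the number 3 pair either.

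Sequences upstream of 4 of these genes are shown because 3 of them carry the blocked genotype calls and the fourth, Ina, carries one of the largest number differences. They come from RefSeq on build GRCm38.p6, which matched 7 of the 10 symbols, and the deposited coordinates are on GRCm38. Each window covers 250 bases before the RefSeq start, written 5′ to 3′ on the gene's strand, and that of Tubb3 stops after 121 bases, where the deposited gene begins. Capitals mark the GC box GGGCGG, a sequence that Sp family proteins are known to bind, or the E boxes CAGCTG and CAGATG, each searched on both strands.
Tubb3, chr8:123411303-123411423, plus strand: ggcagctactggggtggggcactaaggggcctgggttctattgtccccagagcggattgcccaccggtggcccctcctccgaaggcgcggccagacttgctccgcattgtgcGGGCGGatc
Stmn3, chr2:181314501-181314750, minus strand: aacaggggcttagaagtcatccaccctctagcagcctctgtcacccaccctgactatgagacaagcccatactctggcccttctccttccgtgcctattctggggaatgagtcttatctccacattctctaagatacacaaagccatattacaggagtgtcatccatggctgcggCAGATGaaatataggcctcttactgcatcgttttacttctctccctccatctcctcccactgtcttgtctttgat
Elavl4, chr4:110351912-110352161, minus strand: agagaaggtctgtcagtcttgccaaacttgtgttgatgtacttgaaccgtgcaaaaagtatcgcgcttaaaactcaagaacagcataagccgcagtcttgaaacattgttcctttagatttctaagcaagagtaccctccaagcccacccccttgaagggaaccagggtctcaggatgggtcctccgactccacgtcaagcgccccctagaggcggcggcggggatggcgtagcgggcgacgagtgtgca
Ina, chr19:47014431-47014680, plus strand: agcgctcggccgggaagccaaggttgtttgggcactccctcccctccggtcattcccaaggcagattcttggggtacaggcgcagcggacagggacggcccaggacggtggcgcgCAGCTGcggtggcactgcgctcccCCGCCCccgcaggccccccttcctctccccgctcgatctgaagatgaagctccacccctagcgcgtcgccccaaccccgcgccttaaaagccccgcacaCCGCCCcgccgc

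In the full 250-base windows the GC box occurred 2 times at Tubb3 and 2 times at Ina, and 0 times at Stmn3 and Elavl4. Among the other matched genes it occurred 5 times at Map2, 1 time at Elavl3 and 0 times at Dcx. RefSeq gave 4 windows for Elavl4 and 2 for Dcx, and only the one nearest the start of the deposited gene was searched. Over 32851 RefSeq windows of that length, 32.7% held a GC box, 13.0% held the first E box and 14.4% the second. The first E box was found at Ina and Elavl3, and the second at Stmn3. The GC content was 68.0% at Tubb3, 48.8% at Stmn3, 53.6% at Elavl4 and 70.8% at Ina, against a median of 52.4% over these windows. The 2 genes lower in null libraries with the block thus differed in this window, as Tubb3 had the GC box and Stmn3 did not. These matches are descriptions of letters and not of binding.

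Per length, Tubb3 stood above the other 9 genes. Levels between genes are compared here as deposited FPKM, fragments per kilobase and library total. Tubb3 was at 435 ± 104 FPKM over the 6 libraries (SD), with 263 as its lowest value. Stmn3 followed at 99.8 ± 25.9 and Elavl3 at 89.1 ± 8.81 FPKM. The order then ran through Ina (62.5 ± 35.3), Dcx (43.2 ± 12.5), Stmn2 (36.6 ± 15.5), Gap43 (34.0 ± 17.7), Map2 (25.9 ± 3.25), Mapt (18.6 ± 10.4) and Elavl4 (15.997 ± 2.87). Below Tubb3 the ranges of neighbours in this order overlapped. Compared within libraries, Dcx was above Stmn2 in all 6, most narrowly in null 1 (43.7 against 43.5 FPKM). The other neighbours below Tubb3 changed order between libraries, so their ranks are not separated. The FPKM of Map2 rests on the longest length implied for the 10 genes by the deposited values, 32401 bases, against 1136 for Stmn3, the shortest length. Gene-level counts do not tell the isoforms of Map2 and Mapt apart.

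**Figure D1:**
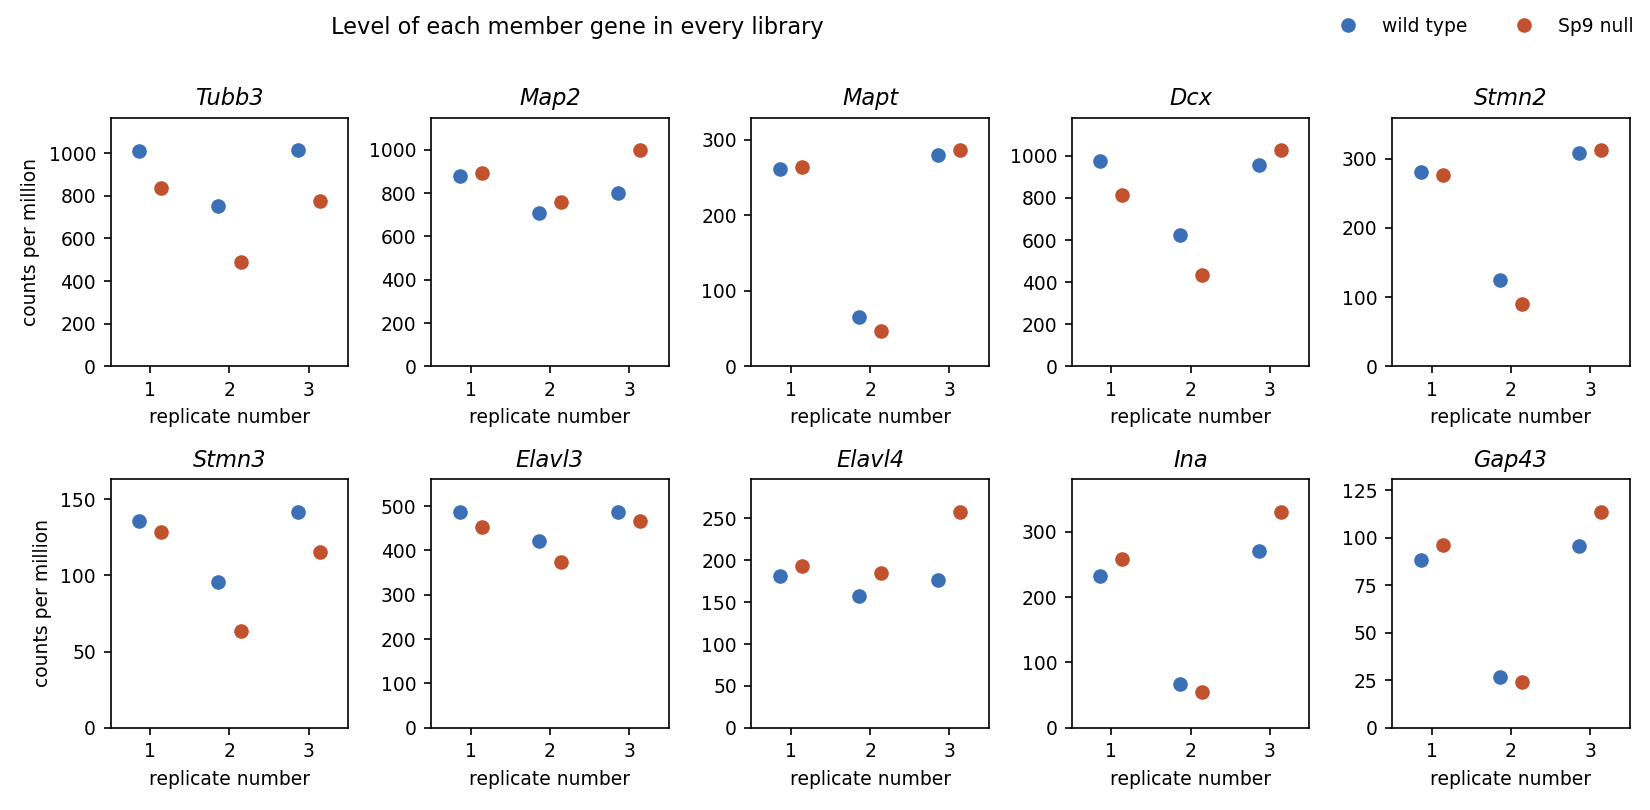
Level of each of the 10 genes in every library, in CPM on axes that start at 0, by replicate number, with wild type in blue and Sp9 null in orange; each point is 1 library. The points of number 2 are lowest in both genotypes, most plainly for Mapt, Ina and Gap43, whereas Map2, Elavl3 and Elavl4 sit much closer to the other numbers.

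Tubb3 (ENSMUSG00000062380, chromosome 8, 123411424 to 123422015) encodes the neuronal beta-tubulin recognised in newborn neurons. It was at 1009, 752 and 1014 CPM in wild type 1, 2 and 3 and at 837, 491 and 775 CPM in null 1, 2 and 3. The number 2 library was the lowest of each genotype, and the null value was below the wild type value within every number, although the groups overlapped. The fitted log2 difference of number 2 was -0.57 (SE 0.08) from number 1 and -0.53 (SE 0.08) from number 3, with an edgeR adjusted p of 4.74e-07 for the replicate number.

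The 3 microtubule-associated protein genes did not move alike. Map2 (ENSMUSG00000015222, chromosome 1, 66175273 to 66442583), whose protein bundles microtubules in dendrites, was at 879, 707 and 799 CPM (wild type 1 to 3) and 893, 758 and 998 CPM (null 1 to 3). Mapt (ENSMUSG00000018411, chromosome 11, 104231390 to 104332090), encoding the axonal protein tau, was at 261, 65.6 and 280 CPM (wild type 1 to 3) and 264, 47.4 and 286 CPM (null 1 to 3). Number 2 was thus 4.57-fold lower than number 1 for Mapt and 1.19-fold lower for Map2. Dcx (ENSMUSG00000031285, chromosome X, 143855842 to 143933311), encoding doublecortin, which migrating neurons need, was at 974, 626 and 958 CPM (wild type 1 to 3) and 816, 435 and 1027 CPM (null 1 to 3). Its number 2 was 1.67-fold below number 1 and 1.88-fold below number 3. The log2 differences of number 2 from number 1 were -2.19 (SE 0.10) for Mapt, -0.74 (SE 0.13) for Dcx and -0.25 (SE 0.08) for Map2.

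The stathmin genes differed from each other in size. Stmn2 (ENSMUSG00000027500, chromosome 3, 8509360 to 8561606), also called SCG10 and found in growth cones, was at 281, 125 and 308 CPM (wild type 1 to 3) and 276, 89.5 and 312 CPM (null 1 to 3). Stmn3 (ENSMUSG00000027581, chromosome 2, 181306459 to 181314500), also called SCLIP, was at 135, 95.3 and 142 CPM (wild type 1 to 3) and 129, 63.7 and 115 CPM (null 1 to 3). Outside number 2, the Stmn2 levels of the genotypes lay within 276 to 312 CPM. For Stmn3 the null value was below the wild type value within each number. Number 2 was 2.56-fold below number 1 for Stmn2 and 1.65-fold for Stmn3.

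Elavl3 and Elavl4, the RNA-binding protein genes, had the smallest differences of number 2 from number 1 among the 10 genes. Elavl3 (ENSMUSG00000003410, chromosome 9, 22015005 to 22052023), encoding HuC, was at 487, 421 and 488 CPM (wild type 1 to 3) and 452, 373 and 466 CPM (null 1 to 3). Elavl4 (ENSMUSG00000028546, chromosome 4, 110203722 to 110351909), encoding HuD, was at 182, 158 and 176 CPM (wild type 1 to 3) and 194, 185 and 258 CPM (null 1 to 3). All 3 null values of Elavl4 lay above the wild type range, the lowest of them by 3.62 CPM, and null 3 stood above the rest. Elavl4 was the only 1 of the 10 genes whose genotypes did not overlap, and 13% of the 14929 tested genes did not overlap either. The log2 difference of number 2 from number 1 was -0.22 (SE 0.07) for Elavl3 and -0.11 (SE 0.09) for Elavl4, and the latter did not pass (edgeR adjusted p = 0.468). From number 3, the difference was -0.31 (SE 0.09) for Elavl4, which passed (edgeR adjusted p = 0.0163), beside -0.28 for Map2 and -0.25 for Elavl3.

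Ina and Gap43 followed Mapt. Ina (ENSMUSG00000034336, chromosome 19, 47014698 to 47025327), encoding the neuronal intermediate filament alpha-internexin, was at 233, 67.4 and 270 CPM (wild type 1 to 3) and 259, 54.5 and 331 CPM (null 1 to 3). Gap43 (ENSMUSG00000047261, chromosome 16, 42248442 to 42340651), whose protein lines the membrane of growth cones, was at 88.3, 27.0 and 95.7 CPM (wild type 1 to 3) and 96.2, 24.0 and 114 CPM (null 1 to 3). Number 2 was lowest in both genotypes, and the null value exceeded the wild type value in numbers 1 and 3 and fell short of it in number 2. Number 2 was 3.94-fold below number 1 for Ina and 3.54-fold for Gap43. The deposited locus of Ina overlaps that of Nt5c2, which had up to 1379 counts, and the locus of Map2 overlaps that of Gm10558, which had up to 205. Strandedness is not stated in the labels, so reads of the overlapping parts may not be separated.

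Across all genes, 3409 of 14929 differed by replicate number with genotype as a term (22.8%, edgeR quasi-likelihood F test), and 10 of the 10 described here did. The smallest adjusted p was 2.83e-17, for Gap43, and the largest 0.0421, for Elavl4. Number 2 was lower than number 1 in 9 of the 10, against 12% of tested genes, and lower than number 3 in 10 of the 10, against 14.4%. Higher values in number 2 were called for 0 of the 10 and for 7.17% and 9.8% of all genes. Between numbers 3 and 1, 0 of the 10 passed in either direction, where 0.181% of genes were higher and 0.134% lower in number 3. The largest difference there was 0.30 on the log2 scale (SE 0.11, edgeR adjusted p = 0.491), for Ina. Without the number 2 pair, 0 of the 10 and 15 of 15069 genes were called for the replicate number by edgeR, and 3 of the 10 had an unadjusted p under 0.05. By DESeq2, Map2, Elavl3 and Elavl4 did not pass for the replicate number and the other 7 did.

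**Figure D2:**
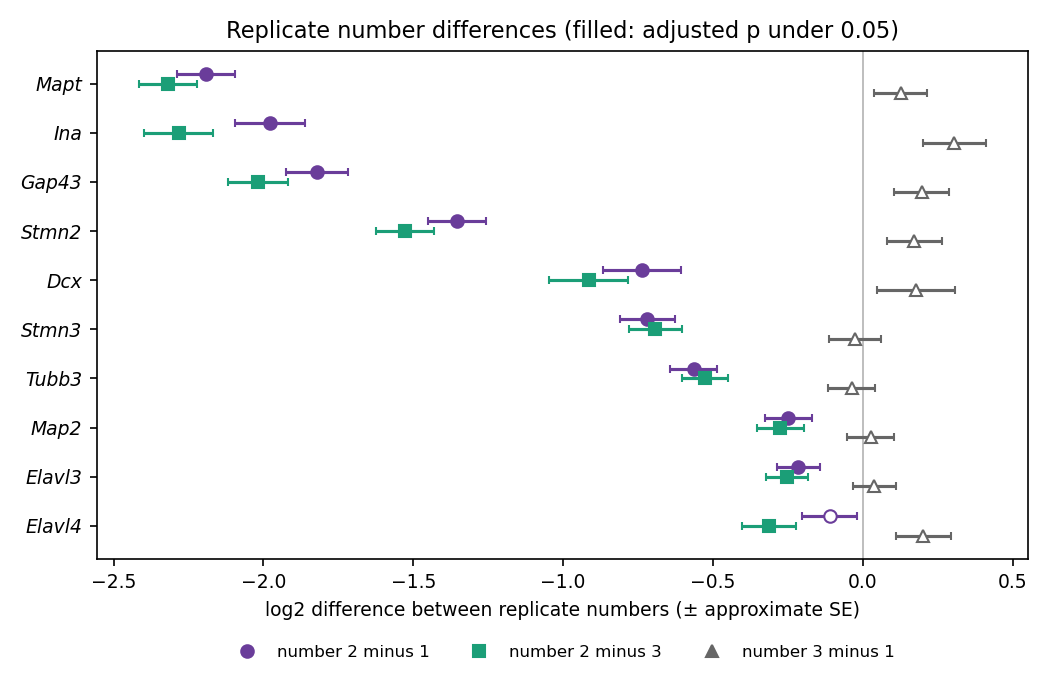
Fitted log2 difference between replicate numbers for each gene, with bars of 1 approximate standard error and genotype as a term in the fit; filled symbols passed an edgeR adjusted p of 0.05. The difference of number 2 from number 1 runs from -0.11 at Elavl4 to -2.19 at Mapt and that from number 3 from -0.25 at Elavl3 to -2.32 at Mapt, while number 3 minus number 1 (triangles) lies between -0.04 and 0.30.

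Ranked by the level in number 2 relative to numbers 1 and 3, the 10 genes had the same order in both genotypes. In wild type libraries, number 2 stood at 24.3%, 26.8% and 29.4% of the mean of numbers 1 and 3 for Mapt, Ina and Gap43. In null libraries the same 3 genes stood at 17.2%, 18.5% and 22.9%. Stmn2 was at 42.5% and 30.5%, Dcx at 64.8% and 47.2%, Stmn3 at 68.8% and 52.2%, and Tubb3 at 74.4% and 60.9% in wild type and null libraries. Map2, Elavl3 and Elavl4 kept between 80.2% and 88.1% in both. The share was smaller in null than in wild type libraries for 10 of the 10, against 54.9% of all genes tested. Other neuronal genes did the same, such as Tubb2a (0.66 in wild type and 0.52 in null libraries, as ratios) and Rtn1 (0.53 and 0.44). Camsap1 went the other way (0.85 and 0.92). How many other neuronal genes did so was not counted, so the contrast is not shown to be particular to the 10. On principal component 1, null 2 lay further out (46.0) than wild type 2 (37.0). The contrast of shares between genotypes sets 1 library against 1. It could not be tested, since genotype by number leaves no residual degrees of freedom.

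Markers of some other cells, but not of all, differed between the numbers. Of 10 progenitor markers, 8 were higher in both number 2 libraries than in the other 4, a pattern seen in 15.8% of tested genes. Their summed level was 6007 and 6224 CPM in the number 2 libraries and 4392 to 5031 CPM in the others. Of 8 neuron markers, 6 were lower in both number 2 libraries, against 21.9% of tested genes, and their sum was 456 to 476 CPM against 667 to 747 CPM. Summed markers of cortical excitatory neurons, 9 genes, were at 1.73 to 2.11 CPM in number 2 and 23.2 to 59.5 CPM elsewhere. Of those 9, 4 were lower in both number 2 libraries. Tbr1 had 7 and 1 counts in number 2 and 141 to 395 in the other libraries, and Slc17a6 had 1 and 5 against 52 to 111. Emx1 was at 0 in number 2 and at 1 to 6 counts elsewhere. Neurog2 had 4 and 0 counts in number 2 and at most 1 elsewhere. Slc17a7 (4 and 7, against 3 to 8) and Neurod2 (2 and 2, against 0 to 5) overlapped too, and Neurod6 had at most 1 count in any library. The 8 hypothalamus and thalamus markers summed to 24.0 to 28.3 CPM in number 2 and 48.3 to 75.8 CPM elsewhere. Of these 8, 5 were lower in both number 2 libraries, among them Otp with 0 and 1 counts against 19 to 34. Tcf7l2 overlapped, at 17.6 and 18.9 CPM in number 2 and 13.5 to 19.6 CPM elsewhere. Erythroid markers, 7 genes, summed to 1180 and 1207 CPM in number 2 and 770 to 888 CPM elsewhere. MGE markers summed to 3944 CPM in wild type 2, between wild type 3 and 1 (3892 and 4078 CPM). In null 2 they summed to 4429 CPM, below null 1 and 3 (4650 and 4635 CPM). Of the 13 MGE markers, 5 differed by replicate number. Against number 1, 4 of the 13 were lower and 1 higher in number 2. Few tested markers of microglia (0 of 7), endothelium and pericytes (1 of 9) and the oligodendrocyte lineage (1 of 5) differed by replicate number. Over all tested genes the share was 22.8%. Of 8 markers of the lateral ganglionic eminence and striatum 7 differed, with sums of 353 and 435 CPM in number 2 and 363 to 399 CPM elsewhere. The part of these lists in the differences of the 10 genes was not tested.

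Other genes of the neuronal cytoskeleton and of RNA binding were lower in number 2 in many cases too. Of 82 such genes on 7 lists, 80 were tested, and 51 differed by replicate number (63.8%, against 22.8% of all tested genes). Compared with number 1, 42 were lower and 4 higher in number 2, with a median log2 difference of -0.29 against 0.005 over all genes and -0.73 over the 10 genes. Among neurofilament genes, Nefl was lowest relative to number 1, with a log2 difference of -2.32, and Nefm differed by -1.11. Nefl was at 24.9, 5.50 and 30.6 CPM (wild type 1 to 3) and 29.0, 5.01 and 31.1 CPM (null 1 to 3), a pattern close to those of Mapt and Ina. Of 12 tested tubulin genes, 5 were lower in number 2 than in number 1, including Tubb4a (-1.02), Tubb2a (-0.70) and Tubb2b (-0.36).

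The lists of proteins that work with microtubules and at the growth cone gave intermediate values. Of 15 microtubule-associated protein genes, 7 were lower and 1 higher in number 2 than in number 1, with Map6, which stabilises microtubules against cold, at -0.83, the doublecortin-like kinase gene Dclk1 at -0.78 and Camsap3, a microtubule minus-end binder, at -0.76. The other stathmin genes, Stmn4 and Stmn1, were both lower, by log2 differences of -0.76 and -0.29. Of 14 growth cone genes 8 were lower, among them Rtn1 (-0.99), Cplx1 (-0.66) and Dpysl3 (-0.64). Of 15 axonal transport motor genes 9 were lower and 1 higher, with Dync1i1 at -0.93 and the kinesin heavy chain genes Kif5c and Kif5a at -0.78 and -0.78. Of 19 RNA-binding protein genes 9 were lower and 2 higher, the higher ones being Elavl1 (0.24) and Ptbp1 (0.30). Among the lower ones were Celf6 at -2.08, Rbfox3, which encodes the neuronal nuclear antigen NeuN, at -1.12 and Celf5 at -0.92. The small differences of Elavl3 and Elavl4 from number 1 were therefore not shared by all neuronal RNA-binding protein genes. Without the number 2 pair, 0 of the 80 genes were called for the replicate number by edgeR, and 8 had an unadjusted p under 0.05.

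**Figure D3:**
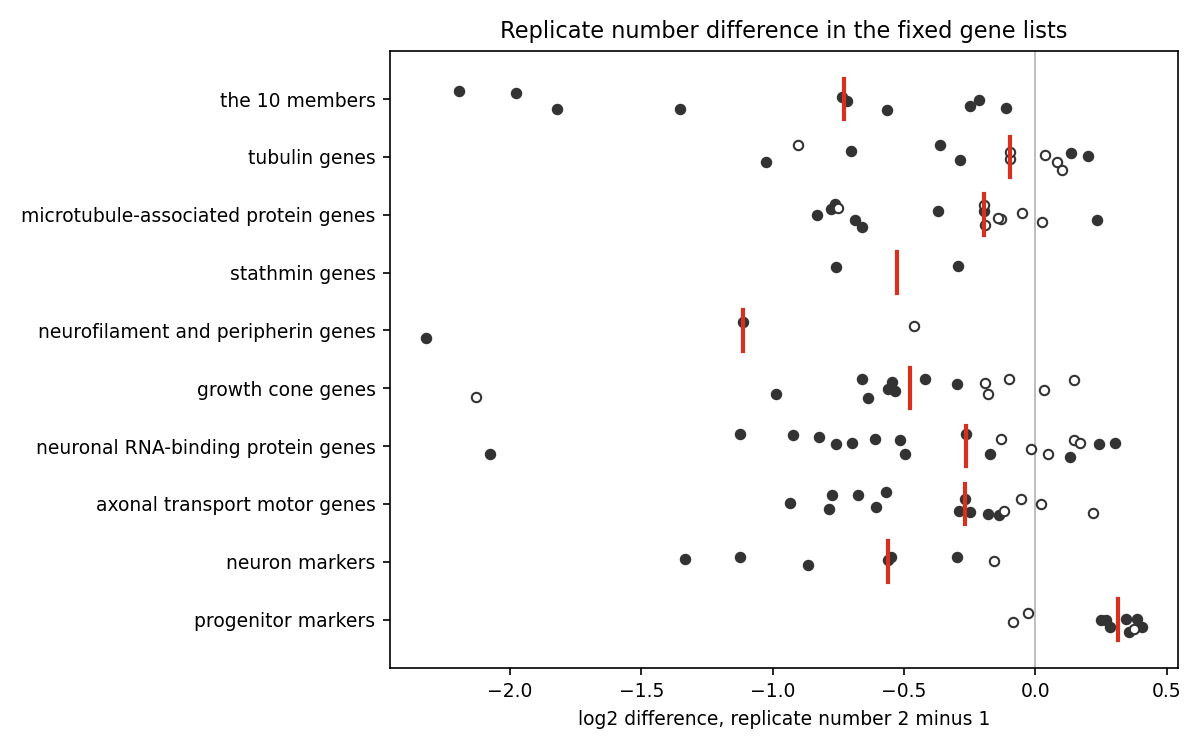
Fitted log2 difference of number 2 from number 1 for every tested gene of each list, with filled points for genes that passed the replicate number test (edgeR adjusted p of 0.05), open points for those that did not, and a red bar at the list's median; vertical scatter has no meaning. The median is -0.73 for the 10 genes and 0.31 for progenitor markers, with the neurofilament genes below both at -1.11 and the other neuronal lists between these values.

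The question of the genotype comparison is which of these neuronal genes differ when Sp9 is absent. With genotype alone, 22 of 14929 genes were called (0.147%), and 0 of the 10 (edgeR quasi-likelihood test); 1 of the 10, Elavl4, had an unadjusted p under 0.05, as had 5.91% of all genes. DESeq2 without the block called 0 of the 10 as well. The median log2 fold change, null over wild type, was -0.04 for the 10 genes and -0.005 for all tested genes. The standard error was 0.82 for Mapt, 0.79 for Ina and 0.71 for Gap43, the genes with the largest number differences, and 0.10 for Elavl3.

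With the replicate number as a block, 597 genes were called (4%), 332 higher (2.22%) and 265 lower (1.78%) in null libraries, and 3 of the 10 were among them. Tubb3 fell by 24.3% (log2 fold change -0.40, SE 0.06, adjusted p of 5.58e-05 by edgeR), from 925 ± 149 to 701 ± 184 CPM (SD, n = 3 each). Stmn3 fell by 18.2% (log2 fold change -0.29, SE 0.07, adjusted p of 0.0186 by edgeR), from 124 ± 25.2 to 103 ± 34.3 CPM. Elavl4 rose by 24.6% (log2 fold change 0.32, SE 0.07, adjusted p of 0.0203 by edgeR), from 172 ± 12.6 to 212 ± 39.8 CPM. Without the number 2 pair the blocked log2 fold changes were -0.31 for Tubb3, -0.17 for Stmn3 and 0.34 for Elavl4, with edgeR adjusted p of 0.110, 0.472 and 0.188; 5 of the 10 then had an unadjusted p under 0.05. Without the number 3 pair Tubb3 passed (0.0105), and Stmn3 and Elavl4 did not (0.197 and 0.441), the latter at a log2 fold change of 0.18. By DESeq2 with the block Tubb3 passed (adjusted p = 7.43e-05), and Stmn3 and Elavl4 did not (0.334 and 0.0960).

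The other 7 genes did not pass in either fit. Their blocked log2 fold changes were 0.17 (SE 0.06) for Map2, 0.12 (SE 0.08) for Gap43, 0.10 (SE 0.09) for Ina, -0.09 (SE 0.08) for Mapt, -0.09 (SE 0.06) for Elavl3, -0.13 (SE 0.08) for Stmn2 and -0.20 (SE 0.11) for Dcx. Map2 passed with the block when the number 1 pair was left out (log2 fold change 0.24, edgeR adjusted p = 0.00128), and Dcx when the number 3 pair was left out (-0.37, 0.0227). In the paralogue pairs the values were -0.29 for Stmn3 beside -0.13 for Stmn2, and 0.32 for Elavl4 beside -0.09 for Elavl3; these differences between genes were not tested.

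**Figure D4:**
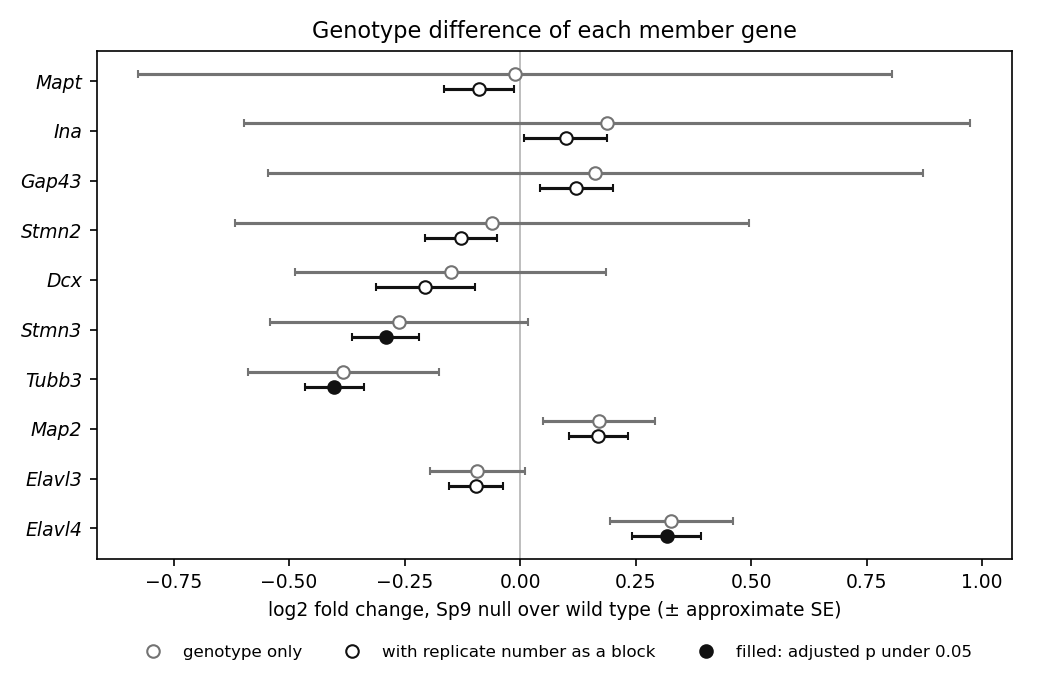
Log2 fold change of each gene, Sp9 null over wild type, with bars of 1 approximate standard error, in the fit with genotype alone (grey) and with the replicate number as a block (black); filled symbols passed an edgeR adjusted p of 0.05. The block narrows the bar of Mapt from 0.82 to 0.08, and Stmn3, Tubb3 and Elavl4 are filled in that fit.

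Within numbers, the null over wild type ratio was lowest in number 2 for 8 of the 10 genes, against 37% of all tested genes. This count uses the same libraries as the smaller shares of number 2 in null libraries, so it is not a separate result. For Tubb3 the log2 ratio of CPM was -0.27, -0.62 and -0.39 in numbers 1, 2 and 3, and for Stmn3 it was -0.07, -0.58 and -0.30. Both genes were lower in null libraries in every number. Elavl4 was higher in every number, with 0.09, 0.23 and 0.55, and Elavl3 lower in every number, with -0.11, -0.17 and -0.06. Mapt was at 0.01, -0.47 and 0.03, so its negative fold change came from number 2. Null values were below wild type values for 5, 8 and 3 of the 10 in numbers 1, 2 and 3, and for 50.5%, 57.3% and 55.6% of all tested genes. Mitochondrial genes took 2.20% to 2.32% of counts in the wild type libraries and null 1 and 3.43% and 3.41% in null 2 and 3; their part in these ratios was not tested.

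**Figure D5:**
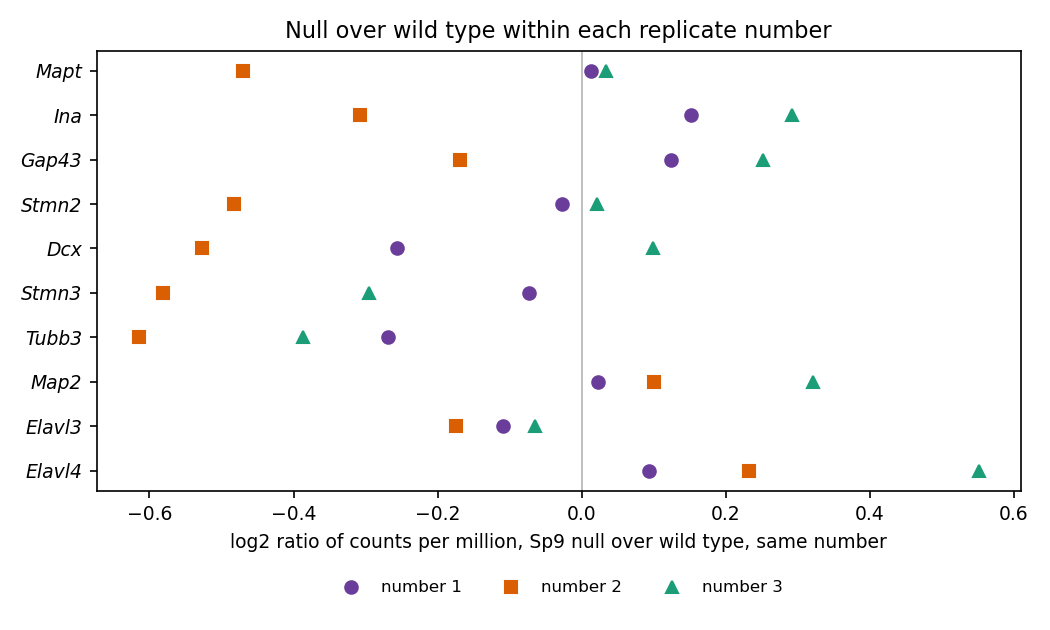
Log2 ratio of CPM, Sp9 null over wild type, within replicate numbers 1 (circles), 2 (squares) and 3 (triangles) for each gene; each point sets 1 library against 1. Number 2 is the leftmost point for 8 genes, and Map2 and Elavl4 are the exceptions.

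Of the 80 other neuronal cytoskeleton, transport and RNA-binding genes tested, 0 were called with genotype alone by edgeR (5 had an unadjusted p under 0.05), and with the block 2 were higher and 2 lower. Those 4 of 80 are a share near the 4% called among all tested genes, so they are given as values and set no list apart. The blocked median log2 fold change was 0.0006, against -0.007 for all tested genes. Tubb2b, another beta-tubulin gene of young neurons, was lower by the block fit (log2 fold change -0.21, SE 0.06, adjusted p of 0.0383 by edgeR). Dclk2, a doublecortin-like kinase gene, was lower (-0.38, SE 0.06, adjusted p = 6.79e-05 by edgeR), at 946, 894 and 853 CPM (wild type 1 to 3) and 749, 625 and 671 CPM (null 1 to 3). The Dclk2 groups did not overlap, and it did not pass for the replicate number (edgeR adjusted p = 0.258). Kif21a, a kinesin gene, was higher (0.24, SE 0.06, edgeR adjusted p = 0.0103), at 225, 223 and 224 CPM (wild type 1 to 3) and 264, 263 and 254 CPM (null 1 to 3). Fmr1, an RNA-binding protein gene of neurons and other cells, was higher by 0.21 (SE 0.06, edgeR adjusted p = 0.0346). Summed neuron markers ranged over 476 to 690 CPM for wild type and 456 to 747 CPM for null libraries. Progenitor markers summed to 4795 to 6007 and 4392 to 6224 CPM, so both lists overlapped between genotypes. Sums of MGE markers did not overlap (3892 to 4078 and 4429 to 4650 CPM). Lateral ganglionic eminence and striatum markers did not either (353 to 374 and 388 to 435 CPM), nor did microglia markers (30.8 to 36.6 and 8.38 to 13.8 CPM). Sums of the remaining lists overlapped. With the block, 3 of 13 MGE markers were higher and 4 lower, and 5 of 7 tested microglia markers were lower. The part of these lists was not tested. Without the number 2 pair, 0 of the 80 were called with the block by edgeR, and 13 had an unadjusted p under 0.05. The blocked log2 fold changes were then -0.18 for Tubb2b, -0.33 for Dclk2, 0.22 for Kif21a and 0.21 for Fmr1, with edgeR adjusted p of 0.479, 0.0817, 0.223 and 0.325.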

How the data were processed

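RNA-seq counts of 34745 genes in 6 libraries were used as deposited. The authors' file holds raw read counts as whole numbers and FPKM values, per the file headers. For 21180 of 21180 genes counted in at least 2 libraries, the deposited FPKM could be computed from the count, the library total and a single length (relative tolerance 0.001). TopHat and Cufflinks 2.1.1 and the build GRCm38.p4 are named in the submitters' processing notes; no label or header names the counting program. Unused sample columns numbered 0.

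CPM were computed from the count totals. Counts were tested in R 4.3.3 with the edgeR 4.0.16 quasi-likelihood test (TMM scaling, default expression filter, robust dispersions, 14929 genes, two-sided, Benjamini-Hochberg over all tested genes, threshold 0.05). The model held genotype alone, or genotype and replicate number. The replicate number was tested in the second model, whose calls between numbers compare 2 libraries with 2. Approximate standard errors divide the absolute log2 difference by the square root of F. DESeq2 1.42.0 and limma 3.58.1 (on log2 of FPKM plus 1 or 0.1) served as alternatives, along with RLE size factors, no expression filter and leaving out libraries. The fits were tested on simulated data.

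Deviations from the genotype mean correlated by 0.336, 0.729 and 0.535 between libraries of the same number, each over 0.1. Samples were therefore treated as paired by number in the fit with the block, while the fit with genotype alone was unpaired. The pairing comes from the data and not from the labels. Wild type 1 with null 3 (0.354) and wild type 3 with null 1 (0.230) also passed 0.1. Deviations cancel out within a genotype, so a difference shared by the number 2 libraries pushes those of numbers 1 and 3 to correlate. The threshold thus cannot decide how numbers 1 and 3 pair, and the blocked genotype calls rest on that pairing. Each number 2 library correlated negatively with the other genotype's libraries of other numbers. Replicates differed beyond counting noise (chi-square per degree of freedom 3.28 to 21.9).

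The members, gene lists and tests were chosen with earlier results of these data known. All 10 members were named; of other lists, genes called for genotype (at most 6 a list) and the 3 with the largest difference of number 2 from 1 among those that passed for the number. Sequences are from RefSeq. Protein sequences were not used here.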

Additional observations from a re-analysis of the deposited data

How the results depend on the processing

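The number of genes called for genotype, 22 with genotype alone, was 597 with the replicate block, 84 by DESeq2, 163 by DESeq2 with the block, 65 without the expression filter, and 34 and 37 by limma on log2(FPKM + 1) and log2(FPKM + 0.1). Leaving out 1 library gave from 2 calls (without wild type 1) to 34 (without null 2), with 11 and 6 for wild type 2 and 3. With the block, leaving out a pair gave 1193, 126 and 219 calls without number 1, 2 and 3. With RLE size factors the count was within 1.5 times the main one. The count for the replicate number, 3409, was 1542 by DESeq2, 1180 by limma, and 15 to 4062 with 1 number left out, the lowest without number 2. In the other neuronal lists the block raised the calls for genotype from 0 to 4. In settings chosen after seeing the data, leaving out a number gave 0 to 11 calls there with the block (medians -0.020 to 0.012) and 0 to 55 calls for the replicate number, the lowest counts without number 2.

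Of the 7 genes that passed in neither fit, Map2 and Elavl3 kept their sign and the other 5 changed it when single libraries were left out of the fit with genotype alone. The log2 fold change ranged from -0.43 to 0.46 for Mapt, from -0.38 to 0.32 for Stmn2, from -0.44 to 0.13 for Dcx, from -0.29 to 0.65 for Ina and from -0.24 to 0.60 for Gap43. The highest of these values came without null 2. With the block, Mapt and Stmn2 were at 0.038 and 0.012 without number 2, and Ina at -0.038 without number 3. The fewer samples are part of these settings, and the cause was not tested otherwise. Tubb3 and Stmn3 stayed negative and Elavl4 positive in every setting run, but their size moved with single libraries: Tubb3 from -0.51 (without null 1) to -0.19 (without null 2), Stmn3 from -0.44 to -0.012 (without the same libraries) and Elavl4 from 0.16 (without null 3) to 0.41 (without null 2). The block changed no other call among the 10 genes. For the replicate number, Dcx did not pass without number 1 (edgeR adjusted p = 0.336), and Map2, Elavl3 and Elavl4 did not pass without number 3 (0.05003, 0.0764 and 0.454) or by limma.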
